A study of Mus musculus with 20 samples.

Results

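The transcripts described here belong to NF-kB signalling in spinal cord microglia: the 5 subunits Rela, Rel, Relb, Nfkb1 and Nfkb2, the inhibitors and inhibitor-like regulators Nfkbia, Nfkbiz, Bcl3 and Tnfaip3, and the cytokine gene Tnf. They were chosen by symbol, and all 10 were found among the 16810 genes of the table. Microglia were isolated by flow cytometry as the cells with high eGFP from 12-week-old CX3CR1+/eGFP mice on a C57BL/6 background. The reporter replaces 1 allele of the fractalkine receptor gene in every group, controls included, and it also marks blood monocytes. A 1 cm segment was taken around a lesion at thoracic level 9, or from the matching level of non-injured (NI) mice. There were 3 NI samples. Injury was a lateral hemisection (HS), with 3, 2 and 3 samples collected after 72 h, 1 and 2 weeks, or a full transection (FT), with 3 samples per time. The labels name no agent given to any group. The methods describe more mice than RNA-Seq samples, and the labels do not tie samples to animals, so that p-values measure only the spread between these samples.

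NF-kB proteins bind DNA as pairs of subunits. In resting cells these pairs are held outside the nucleus by inhibitors of the I-kappa-B family, and cytokines or microbial products start a kinase cascade that destroys the inhibitor and lets the pair enter the nucleus. Several of the genes that are then switched on encode inhibitors of the pathway itself, which makes the response self-limiting, and in microglia the pathway is best known for driving inflammatory cytokines such as TNF. Relb and Nfkb2 belong to a slower, alternative branch that is started by other members of the TNF receptor family.

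Levels are normalized read counts (CPM, scaled to the effective library size). In NI microglia the genes differed widely in their level per kb of exon. Nfkbia had 303 ± 70.8 CPM per kb (SD, n = 3) and stood first, above every other gene of the set in all NI samples. Nfkbiz (60.3 ± 18.2), Tnf (43.3 ± 3.40) and Rela (39.4 ± 4.31 CPM per kb) followed, and their NI ranges overlapped. Next came Tnfaip3 with 21.7 ± 5.42 and Nfkb1 with 11.9 ± 0.308 CPM per kb. The lowest were Nfkb2 (4.33 ± 0.781), Relb (3.84 ± 0.529), Rel (3.09 ± 0.391) and Bcl3 (1.02 ± 0.299 CPM per kb). Neighbouring genes overlapped between Nfkb2 and Relb and between Relb and Rel.

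Because several inhibitors of the pathway are also its targets, the start regions of the genes were read for the kappa-B consensus, the DNA element that the pairs bind. RefSeq start regions (GRCm38.p6, 250 bases before to 50 after the start) were given for 7 of the 10 genes, and not for Nfkb1, Nfkbiz or Relb. The 10-base consensus, searched on both strands, was found in 5 of the 7 genes (Nfkb2, Rel, Nfkbia, Tnfaip3 and Bcl3), where 9.55% of all 27025 genes with such a region held it (8.46% of 32851 regions, since a gene can have several). The letters were not in the windows of Rela and Tnf. Each match is printed on the strand of the gene (plus for Nfkb2 and minus for the others), with the matching bases in capitals, or 2 overlapping matches as 1 run of capitals.
Nfkbia (chr12:55492667-55492676): actggcttGGAAATTCCCcgcgcctg
Tnfaip3 (chr10:19015526-19015535): ctcacgcgGGGACACCCCggggcggg
Tnfaip3 (chr10:19015413-19015422): tttccatcGGAAATCCCCctgttggc
Bcl3 (chr7:19822744-19822753): ggcggcagGGGAAGTCCCgctgcccg
Rel (chr11:23771051-23771061): taagcagcGGGAAATCCCCccccctcc
Nfkb2 (chr19:46304698-46304708): atcgtcacGGGAATTCCCCccctcggg
Nfkb2 (chr19:46304726-46304735): ggccgaaaGGGGCTTTCCcggctgga
Nfkb2 (chr19:46305459-46305468): cgacggcaGGAATGTCCCcacaaaag
Nfkb2 (chr19:46305705-46305714): gtattttcGGGACTTTCCtaagcagc
The matches of Nfkbia and of 1 of the 2 sites of Tnfaip3 lay 29 and 12 bases before the start, and that of Bcl3 began 2 bases after it. A match describes the sequence and does not show binding in these cells.

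The samples held from 3872918 reads on the 16810 genes (FT 72 h replicate 2) to 34099232 reads (HS 72 h replicate 1), so that a single read was worth 0.292 to 0.0330 CPM. Replicates differed by 10.7 to 98.7 times the sampling noise (chi-square per degree of freedom), and FT 1 week replicate 1 stood farthest from the others of its group (98.7 and 86.7, against 47.7 between those). Summed levels of 10 microglial markers were 15400 to 32400 CPM over the samples, and both ends of this range were in FT 1 week. The 9 markers of monocytes and monocyte-derived macrophages summed to 35.9 to 53.0 CPM in NI and to 55.2 to 305 CPM after injury, with none of them at 0 throughout a group. Groups were compared with limma on log2(CPM + 0.5), and a gene was called differentially expressed (DE) when its p, adjusted over all 16810 genes, was under 0.05 and it differed by at least 2-fold. Gene positions below are those of the mouse genome build GRCm38. In sorted cells taken in bulk, fewer cells of a type and less RNA per cell cannot be told apart.

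The 2 subunits of the common NF-kB pair were nearly flat. Rela (chr19:5637483-5648130), the strongest activator of the family, had 111, 136 and 115 CPM in the 3 NI samples, and the injured samples ranged from 81.5 to 164 CPM. Its log2 fold change from NI lay between -0.35 (FT 72 h) and 0.13 (FT 2 weeks), with standard errors of 0.17 to 0.19. Nfkb1 (chr3:135584655-135691547), which encodes the precursor of the DNA-binding partner, had 141 to 148 CPM in NI and 103 to 155 CPM after injury, with log2 fold changes of -0.30 to -0.03. All 3 samples of HS 72 h and of FT 72 h lay below all NI samples for both genes, and at 1 and 2 weeks the groups overlapped with NI. None of these differences passed the test (adjusted p of 0.147 or more).

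Rel and Nfkb2 were also below NI at 72 h. Rel (chr11:23736847-23770970), the subunit best known from lymphocytes and myeloid cells, had 20.9, 26.4 and 21.9 CPM in NI, 12.3, 17 and 19.5 CPM at HS 72 h, and 15.5, 14.6 and 16.2 CPM at FT 72 h. Nfkb2 (chr19:46304320-46312385), whose product is processed in the alternative branch, had 16.1, 23.3 and 20 CPM in NI, 8.42, 12 and 12.1 CPM at HS 72 h, and 15.5, 5.26 and 12.1 CPM at FT 72 h. For both genes every 72 h sample lay below every NI sample. Rel was as low at FT 1 week (14.6, 20.2 and 11 CPM), the only gene of the set of which all samples there lay below NI, as did 10.1% of all genes. The log2 fold changes were -0.51 (HS) and -0.56 (FT) for Rel and -0.85 and -0.94 for Nfkb2, with adjusted p of 0.0967 to 0.162. When all columns were scaled to the same total, the median of all genes moved from -0.11 to -0.52 at HS 72 h and from -0.09 to -0.48 at FT 72 h. Both genes were then DE (lower) in both comparisons (-1.01 and -1.02 for Rel, -1.34 and -1.39 for Nfkb2), as was Relb at HS 72 h (-1.06). Nfkb2 overlaps Psd and AC114539.1 on the other strand, and the strandedness of the libraries is not stated, so that reads of these genes cannot be told apart.

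Relb was the only subunit that was DE between times after injury. It encodes the partner of Nfkb2 in the alternative branch (chr7:19606217-19629438). Its levels were 12.9, 14.9 and 17 CPM in NI. After HS they were 8.22, 8.39 and 13.7 CPM at 72 h, 24.8 and 23.2 CPM at 1 week, and 20.4, 20.7 and 25.4 CPM at 2 weeks. After FT they were 9.49, 11.4 and 10.6 CPM at 72 h, 29.3, 20.4 and 12.4 CPM at 1 week, and 23.6, 35.1 and 27.9 CPM at 2 weeks. All samples at 1 and 2 weeks lay above all 72 h samples of the same lesion. They also lay above all NI samples, except FT 1 week replicate 3.

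**Figure D1:**
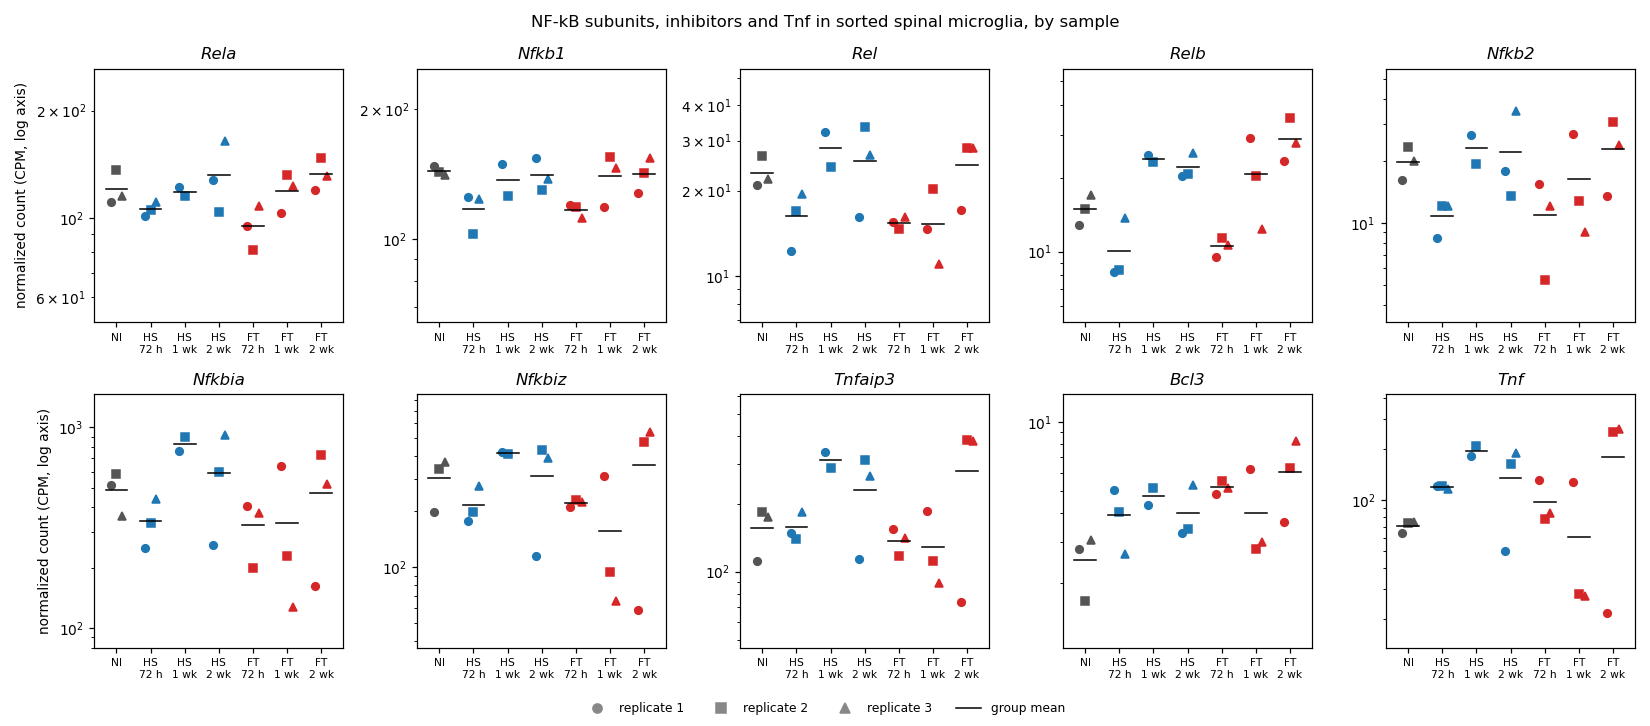
Normalized count of each gene (CPM, log axis) in every sample, by group, with replicates 1, 2 and 3 as circles, squares and triangles and the group mean as a horizontal line. NI is grey, HS blue and FT red. Rela and Nfkb1 stay within a narrow band, and Relb is higher at 1 and 2 weeks than at 72 h. Tnf, Nfkbia and Nfkbiz spread widely within HS 2 weeks, FT 1 week and FT 2 weeks, and Tnfaip3 within HS 2 weeks and FT 2 weeks.

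Between the times after injury, 3 of the 60 comparisons of a gene were DE, and all 3 were Relb and higher at the later time. Over all genes 3.02% of such comparisons were DE, and 0.888% were DE and higher at the later time. Of all genes 6.03% were DE from HS 72 h to 1 week, 4.74% to 2 weeks and 0.0119% from 1 to 2 weeks, and for FT these shares were 3.44%, 3.81% and 0.0714%. The log2 fold change of Relb was 1.24 from HS 72 h to 1 week (standard error 0.29, adjusted p = 0.00773) and 1.13 from HS 72 h to 2 weeks (standard error 0.25, adjusted p = 0.00644). From FT 72 h to 2 weeks it was 1.40 (standard error 0.25, adjusted p = 0.00122), and from FT 72 h to 1 week it was 0.87 (adjusted p = 0.0499), under 2-fold. Without either of the 2 HS 1 week samples the first of these was not DE (adjusted p of 0.0791 and 0.0622), and without FT 1 week replicate 3 the last was DE (1.19, adjusted p = 0.0052). Over the same steps Rela changed by 0.16, 0.29, 0.49 and 0.33 on the log2 scale, which did not pass the test.

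As a ratio within each sample, Relb was 0.110 to 0.147 of Rela in NI, 0.0797 to 0.124 at HS 72 h and 0.0978 to 0.140 at FT 72 h. It was 0.201 to 0.204 at HS 1 week, 0.154 to 0.200 at HS 2 weeks and 0.196 to 0.239 at FT 2 weeks, with no overlap with NI. FT 1 week held both the highest ratio of all samples (0.283, replicate 1) and one at the level of NI (0.101, replicate 3). These ratios are of CPM and not per length.

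From HS 72 h to HS 1 week every sample rose above every earlier one for 9 of the 10 genes, all but Bcl3, where 24.8% of all genes did so. Several of the 9 moved together within groups, so that they are not separate results. The median log2 fold change of the set over this step was 0.87, against 0.07 for all genes. Only Relb passed the test. All HS 2 weeks samples lay above HS 72 h for Nfkb1, Nfkb2 and Relb (14.3% of all genes), all FT 1 week samples above FT 72 h for Relb (9.19%), and all FT 2 weeks samples above FT 72 h for Nfkb1, Rel, Rela and Relb (12.9%). From HS 72 h to HS 1 week, Nfkbia (1.31, adjusted p = 0.161) and Nfkb2 (1.05, adjusted p = 0.139) were DE when the fit used only these groups (adjusted p of 0.00382 and 0.0180). Over this step Rel (0.79, adjusted p = 0.0975) was DE when all columns were scaled to the same total (1.08, adjusted p = 0.0294).

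The inhibitors that the pathway itself induces spread widely between replicates at HS 2 weeks, FT 1 week and FT 2 weeks, except Tnfaip3 at FT 1 week (2.08-fold). In the other groups these inhibitors spread by 1.02 to 2.03-fold. Nfkbia (chr12:55489410-55492647) encodes the I-kappa-B protein that is destroyed and remade in each round of signalling. It had 515, 585 and 362 CPM in NI. After HS it had 250, 335 and 442 CPM at 72 h, 760 and 896 CPM at 1 week, and 259, 598 and 917 CPM at 2 weeks. After FT it had 405, 199 and 374 CPM at 72 h, 644, 230 and 128 CPM at 1 week, and 162, 728 and 522 CPM at 2 weeks. HS 1 week was the only group in which all samples lay above NI, and the lowest level of all was in FT 1 week.

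Nfkbiz (chr16:55811375-55838899) encodes a nuclear I-kappa-B relative that helps to switch on a later set of inflammatory genes. It had 199, 338 and 370 CPM in NI, and 178 to 275 CPM over the 72 h samples of both lesions. At 1 week it had 417 and 410 CPM after HS and 310, 94.5 and 65.8 CPM after FT. At 2 weeks it had 115, 428 and 390 CPM after HS and 58.8, 475 and 538 CPM after FT. Within both groups at 2 weeks, replicate 1 lay far below the others.

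Tnfaip3 (chr10:19000910-19015657) encodes a ubiquitin-editing enzyme that shuts the pathway down below the TNF and Toll-like receptors. It had 112, 184 and 174 CPM in NI and 117 to 184 CPM at 72 h. At 1 week it had 337 and 287 CPM after HS and 185, 112 and 89.1 CPM after FT. At 2 weeks it had 114, 311 and 264 CPM after HS and 73.8, 382 and 377 CPM after FT. The same samples were low as for Nfkbiz. No difference of Nfkbia, Nfkbiz or Tnfaip3 from NI passed the test. The largest were -1.23 for Nfkbiz at FT 1 week (adjusted p = 0.317) and 1.02 for Tnfaip3 at HS 1 week (adjusted p = 0.413). The latter was DE when only NI and HS 1 week entered the fit (adjusted p = 0.0067).

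Bcl3 (chr7:19808462-19822770), a nuclear I-kappa-B relative that binds pairs without an activating subunit, was the least abundant of the set and the only one that was DE against NI. It had 2.80, 1.67 and 3.07 CPM in NI, from 47, 13 and 32 reads. At FT 72 h it had 4.87, 5.55 and 5.16 CPM and at FT 2 weeks 3.65, 6.27 and 8.25 CPM, all above NI. HS 1 week (4.36 and 5.17 CPM) and HS 2 weeks (3.27, 3.42 and 5.31 CPM) also lay above NI, whereas HS 72 h and FT 1 week overlapped with it. The log2 fold change was 1.09 at FT 2 weeks (standard error 0.32, adjusted p = 0.0379) and 0.95 at FT 72 h (standard error 0.32, adjusted p = 0.0358), the latter under 2-fold. The call at FT 2 weeks was lost without any one of the 3 NI samples (adjusted p of 0.0511 to 0.224), without FT 2 weeks replicate 2 or 3 (0.12 and 0.188), with columns scaled to 1 total (0.75, adjusted p = 0.137) and with 1 CPM added (0.97). The antisense gene Gm16175 overlaps Bcl3, and without strand their reads cannot be told apart.

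Tnf (chr17:35199381-35202007) encodes the cytokine that both activates the pathway through its receptors and is made in response to it. It had 64.5, 73.9 and 74.3 CPM in NI. After HS it had 122, 121 and 116 CPM at 72 h, 182 and 210 CPM at 1 week, and 50.5, 164 and 191 CPM at 2 weeks. After FT it had 132, 77.7 and 84.6 CPM at 72 h, 128, 28.2 and 27.4 CPM at 1 week, and 21.7, 253 and 265 CPM at 2 weeks. All samples of both 72 h groups and of HS 1 week lay above NI. In the other 3 groups some samples were above NI and others were below it, down to 21.7 CPM in FT 2 weeks replicate 1.

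The log2 fold changes of Tnf from NI were 0.75 (HS 72 h), 1.46 (HS 1 week), 0.72 (HS 2 weeks), 0.43 (FT 72 h), -0.61 (FT 1 week) and 0.68 (FT 2 weeks). Their standard errors were 0.68 to 0.76, and no adjusted p was under 0.426. At FT 2 weeks without replicate 1, Tnf was DE (1.86, adjusted p = 0.0277), as were Tnfaip3 (1.30, adjusted p = 0.0208) and Relb (1.05, adjusted p = 0.0282). Relb with all samples had a log2 fold change of 0.92 (adjusted p = 0.0255), under 2-fold. At HS 1 week Tnf was DE when only NI and HS 1 week were fitted (1.46, adjusted p = 3.59e-05), against an adjusted p of 0.449 with all 20 samples. The smaller fit takes its spread from 3 and 2 samples, in which Tnf varied by 1.15-fold within each group. Over all genes, fits of only the 2 groups compared called 7197 comparisons with NI, against 6719 with all samples.

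The 6 comparisons with NI share the same control samples, so that they are not independent. Against NI, 1 of the 60 comparisons of the 10 genes was DE, whereas 6.66% of such comparisons were DE over all genes. An adjusted p under 0.05 without the fold limit was found for 3 of the 60, against 12.4% over all genes. The share of all genes that was DE was 13.4%, 2.18% and 3.23% at the successive times after HS, and 12.2%, 4.05% and 4.88% in the FT groups. At 72 h, 4 of the 10 genes after HS and 5 after FT lay below NI in all samples, as did 24.9% and 22.7% of all genes. At HS 1 week, 6 of the 10 lay above NI in both samples, as did 20.2% of all genes. Among the 6, Tnf, Nfkbia, Nfkbiz and Tnfaip3 moved together within groups and are not separate results. Tnf alone at HS 72 h, Bcl3 and Tnf at FT 72 h, and Relb and Bcl3 at HS 2 weeks and FT 2 weeks lay above NI in all samples, as did 24%, 22.2%, 14.5% and 17.3% of all genes. Median log2 fold changes of the 10 genes were -0.37, 0.59 and 0.12 at the HS times and -0.37, -0.36 and 0.13 at the FT times, against -0.11 to 0.02 for all genes.

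**Figure D2:**
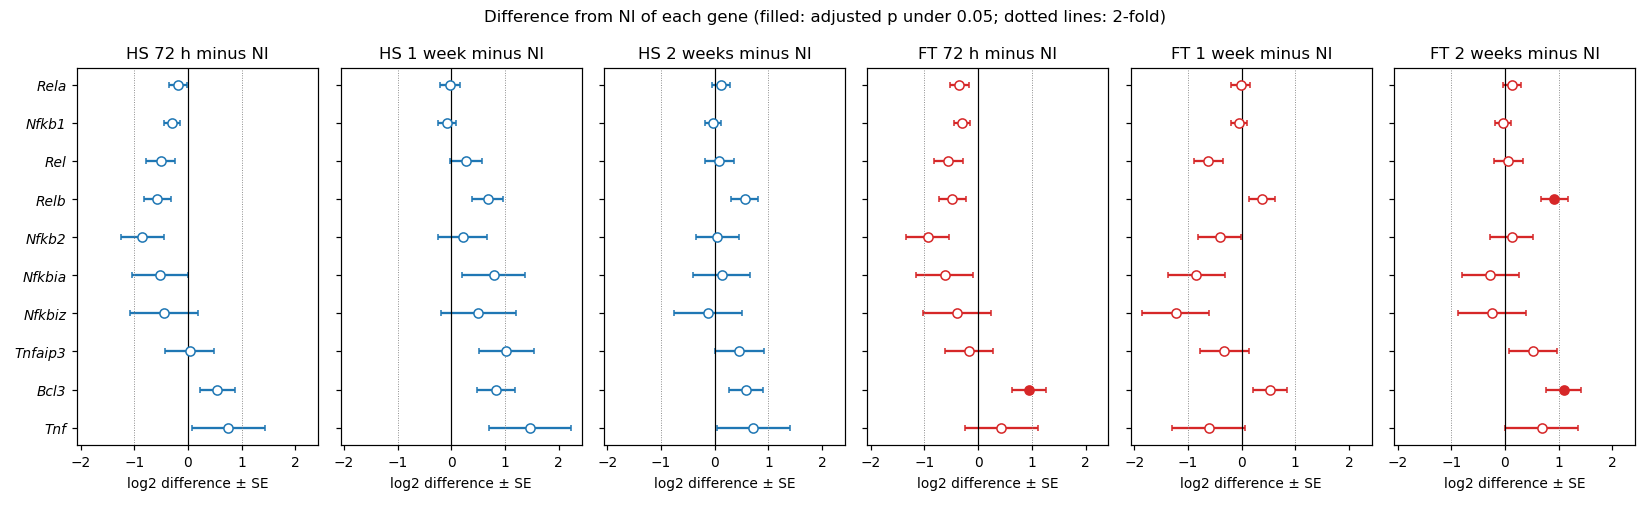
Log2 difference of each gene from NI (x axis, limma estimate ± standard error) in the 6 injured groups. Filled points have an adjusted p under 0.05 and dotted lines mark 2-fold. Bcl3 at FT 72 h and FT 2 weeks and Relb at FT 2 weeks are the filled points, and the intervals of Tnf, Nfkbiz and Nfkbia are several times wider than those of Rela and Nfkb1.

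Whether the response differed with lesion severity was asked by comparing FT with HS at each time. No gene of the set was DE in any of the 30 comparisons, nor was any of the 16810 genes (0% called). At an unadjusted p under 0.05 there were 0, 5 and 0 of the 10 genes at 72 h, 1 and 2 weeks, and 505, 724 and 438 of all 16810 genes (3%, 4.31% and 2.61%). With DESeq2 and with either test of edgeR no gene of the set was called. Over all genes these fits called 8 comparisons (DESeq2), 9 (edgeR likelihood ratio) and 0 (edgeR quasi-likelihood). The 5 genes at 1 week were Tnf (log2 difference -2.07, standard error 0.76), Nfkbiz (-1.73, standard error 0.70), Nfkbia (-1.63, standard error 0.59), Tnfaip3 (-1.34, standard error 0.51) and Rel (-0.89, standard error 0.30). Their adjusted p was 0.999. For each of them all 3 FT samples lay below both HS samples, where 8.25% of all genes did so. Tnf, Nfkbia, Nfkbiz and Tnfaip3 moved together within groups (Pearson's r of 0.83 to 0.97), so that these are not separate results. Without FT 1 week replicate 1 the smallest adjusted p of these 5 was 0.152 (Nfkbia). No difference between FT and HS in the change between times passed the test (adjusted p of 0.996 or more for the set, with 0% of all genes called).

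The low samples were the same ones for several genes of the set. FT 2 weeks replicate 1 was the lowest of its group for all 10 genes, and HS 2 weeks replicate 1 and FT 1 week replicate 3 were each the lowest for 7 of the 10. These samples were the lowest of their group for 34.4%, 31.5% and 30.7% of all genes. Within FT 2 weeks the highest sample exceeded the lowest by 11.9-fold for Tnf, 9.08-fold for Nfkbiz, 5.15-fold for Tnfaip3 and 4.48-fold for Nfkbia (after adding 0.5 CPM). Of the 14051 genes with a mean of at least 1 CPM, 0.171% were spread as widely as Tnf, and their median was 1.36-fold. Rela and Nfkb1 spread by 1.22 and 1.21-fold in the same samples.

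**Figure D3:**
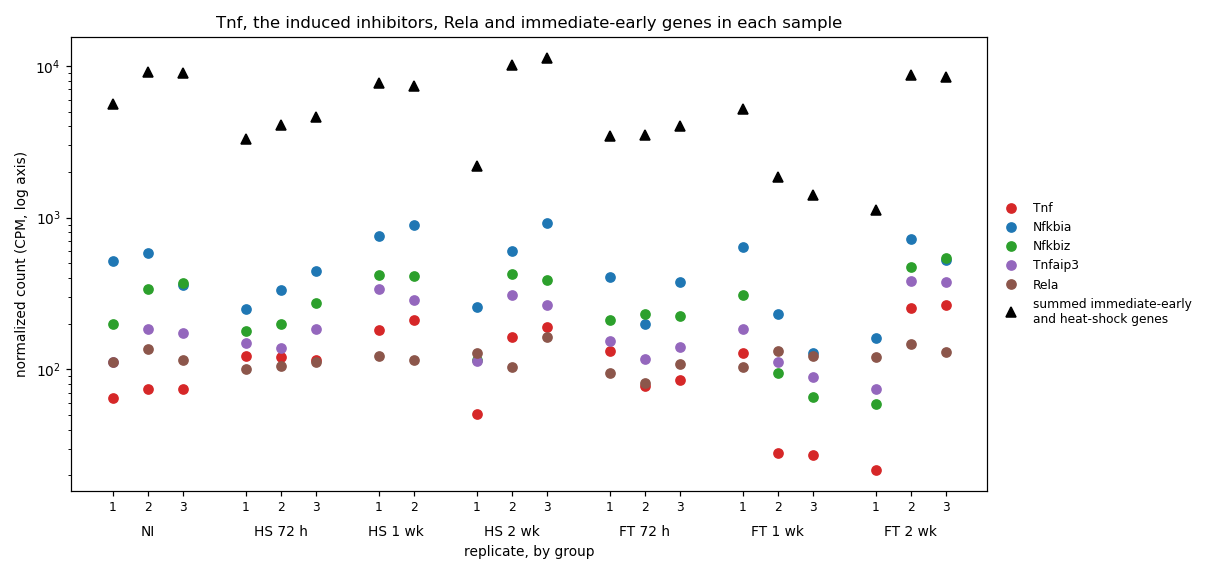
Normalized count (CPM, log axis) of Tnf, Nfkbia, Nfkbiz, Tnfaip3 and Rela in each of the 20 samples, with the summed level of the 13 immediate-early and heat-shock genes as black triangles. The summed level is lowest in FT 2 weeks replicate 1 (1120 CPM) and low in FT 1 week replicates 2 and 3 and HS 2 weeks replicate 1, where Tnf lies between 21.7 and 50.5 CPM and Rela between 120 and 132 CPM.

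Immediate-early genes, which are switched on within minutes of a stimulus and need no new protein, were low in the same samples. Fos, a subunit of the AP-1 transcription factor, had 225 CPM in FT 2 weeks replicate 1, against 2280 and 2550 CPM in the other samples of that group. In HS 2 weeks it had 531 CPM in replicate 1, against 3730 and 3740 CPM. In FT 1 week it had 420 and 314 CPM in replicates 2 and 3, against 1450 CPM in replicate 1. Over a list of 13 immediate-early and heat-shock genes, all 13 were lowest in the first and second of these samples and 11 of 13 in FT 1 week replicate 3. The list summed to 5590 to 9110 CPM in NI, 3320 to 4620 CPM at HS 72 h, 3430 to 4020 CPM at FT 72 h and 7330 to 7760 CPM at HS 1 week. It summed to 2180 to 11300 CPM at HS 2 weeks, 1410 to 5160 CPM at FT 1 week and 1120 to 8740 CPM at FT 2 weeks. Against NI, 3 of the 13 genes were DE and lower at HS 72 h, 3 at FT 72 h and 2 at FT 1 week, where 4.31%, 4.09% and 1.2% of all genes were, and none in the other groups.

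The level of this list was then entered as a covariate, a step chosen after the data were seen. With it 6% of comparisons with NI were DE over all genes, and 4.42% were DE and higher. Of the 60 comparisons of the set 11 were DE, all with a fitted level above NI. They were Tnf in all 6 groups, Tnfaip3 at HS 1 week and FT 2 weeks, Bcl3 at FT 72 h and FT 2 weeks, and Relb at FT 2 weeks. The log2 fold changes of Tnf were then 1.74, 1.49 and 1.02 after HS (adjusted p of 4.39e-05, 0.00201 and 0.0142) and 1.55, 1.16 and 1.54 after FT (adjusted p of 0.000212, 0.0211 and 0.000352) at 72 h, 1 and 2 weeks. The sign at FT 1 week was thus reversed from -0.61, whereas Tnf as measured averaged 61.2 CPM there and 70.9 CPM in NI. The standard errors of Tnf were then 0.25 to 0.29. The list was low in the same samples as Tnf, so that smaller standard errors followed from this choice. The p-values do not account for it. With each sample left out in turn the covariate fit called 8 to 12 comparisons. Tnf was called in 16 of 20 such fits at HS 2 weeks and in 16 of 20 at FT 1 week. At HS 2 weeks its call was lost without NI replicate 2 or 3, HS 2 weeks replicate 1 or FT 2 weeks replicate 1 (0.78 to 0.98), and at FT 1 week without NI replicate 2 or 3, FT 1 week replicate 1 or FT 2 weeks replicate 1 (highest adjusted p = 0.168). At HS 1 week Tnf lost it without HS 1 week replicate 2 (adjusted p = 0.0609), and Tnfaip3 without NI replicate 1 or HS 1 week replicate 1. Bcl3 lost it at FT 72 h without NI replicate 2 (0.99) and at FT 2 weeks without replicate 3 (adjusted p = 0.0683). Because the list itself was lower in some injured groups, its level and the injury cannot be fully told apart. Between FT and HS no gene of the set was DE with the covariate (Tnf -0.33 at 1 week, adjusted p = 0.959).

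The level of Tnf was also set against the list within each sample, without a model. Tnf amounted to 1.15, 0.811 and 0.834% of the summed immediate-early and heat-shock level in the NI samples. It amounted to 2.5 to 3.68% at HS 72 h, 2.35 to 2.87% at HS 1 week and 1.63 to 2.32% at HS 2 weeks. After FT it was 2.11 to 3.84% at 72 h, 1.52 to 2.48% at 1 week and 1.93 to 3.14% at 2 weeks. Every injured sample lay above every NI sample, as it did for 1.98% of the 16797 genes outside the list. The sum of the list was itself lower than in NI in many injured samples, which raises the share of any gene that did not fall with it: Rela amounted to 1.29 to 1.99% in NI and to 1.03 to 10.7% after injury, with overlap. Where the share of Tnf rested on the lowest sums (HS 2 weeks replicate 1, FT 1 week replicates 2 and 3 and FT 2 weeks replicate 1), Tnf itself was below NI. Tnfaip3 amounted to 1.96 to 2.02% in NI and 2.35 to 6.57% after injury. For Nfkbiz (3.56 to 4.16% in NI, 3.47 to 6.59% after injury) and Nfkbia (4.07 to 9.21% and 5.69 to 14.5%) the groups overlapped. These shares were looked at after the data were seen and carry no test.

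**Figure D4:**
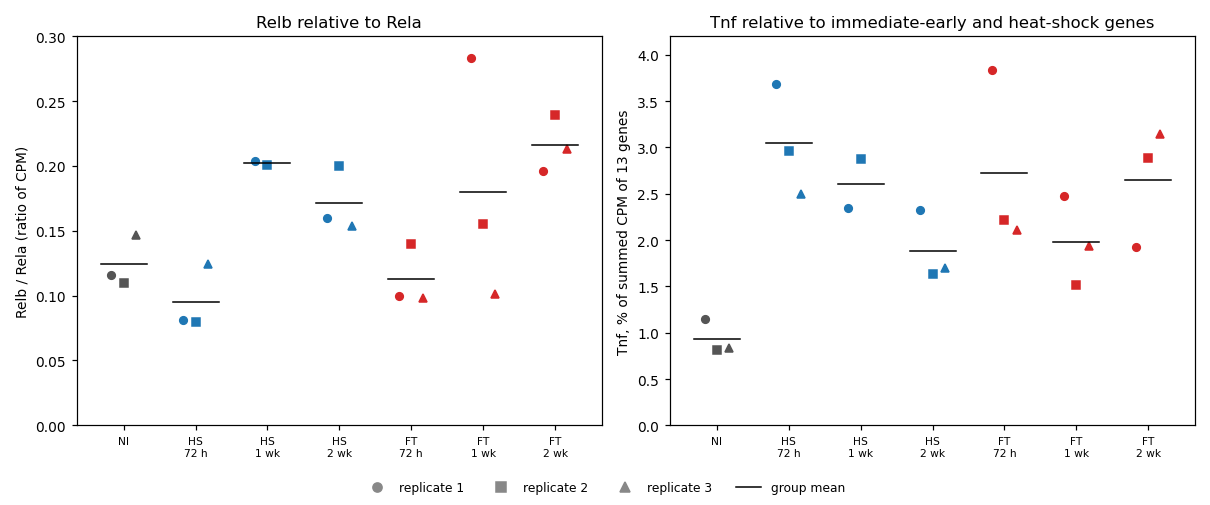
Left, Relb as a ratio to Rela (CPM over CPM) in each sample. Right, Tnf in percent of the summed CPM of the 13 immediate-early and heat-shock genes. Horizontal lines are group means, and both axes start at 0. Relb per Rela is higher than NI at HS 1 week, HS 2 weeks and FT 2 weeks but not at 72 h, whereas the share of Tnf is above the NI range of 0.811 to 1.15% in every injured sample.

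Markers of other cells were set beside these samples. At 72 h, where Relb and Nfkb2 had their lowest means, the monocyte list summed to 85.7 to 165 CPM after HS and 118 to 305 CPM after FT. Of its 9 genes 4 and 6 were DE and higher than in NI, as were 9.08% and 8.14% of all genes. The 6 markers of border-associated macrophages summed to 195 to 214 CPM in NI but to 54 to 65.7 CPM at HS 2 weeks and 37.6 to 64.1 CPM at FT 2 weeks, where Relb was high. All 6 were DE and lower in both groups, as were 0.797% and 1.36% of all genes. The monocyte list summed to 63.7, 64.7 and 68.3 CPM in the samples of FT 2 weeks, among which Tnf differed by 11.9-fold. Neutrophil markers (7 genes) summed to 8.05 CPM in FT 2 weeks replicate 1, against 273 and 75.4 CPM in the others, and oligodendrocyte markers (6 genes) to 376 CPM, against 2390 and 1420 CPM. In HS 2 weeks replicate 1 the neutrophil list (115 CPM) was the highest of its group and the oligodendrocyte list (420 CPM, against 1280 and 1200 CPM) the lowest. In FT 1 week replicate 3 the neutrophil list (31.0 CPM) was the lowest and the oligodendrocyte list (1780 CPM) the highest of its group. The 2 erythroid markers measured summed to 54.1 CPM in HS 2 weeks replicate 1 (against 122 and 113 CPM), 23.6 and 35.5 CPM in FT 1 week replicates 2 and 3 (against 111 CPM) and 19.4 CPM in FT 2 weeks replicate 1 (against 202 and 119 CPM), low in the same samples as Tnf, but also to 30 and 21.3 CPM at HS 1 week, where Tnf was high. Microglial markers (10 genes) summed to 15400 CPM in FT 1 week replicate 1, against 32400 and 26600 CPM where Tnf was lower. In FT 2 weeks they summed to 26500 CPM in replicate 1, against 21500 and 17700 CPM where Tnf was higher. In HS 2 weeks the sample with the lowest Tnf lay between the others (22900 CPM, against 21200 and 23600 CPM). Within the groups at 2 weeks, lymphocyte markers (8 genes) were lowest in FT replicate 1 (6.55 CPM) but not in HS replicate 1 (9.2 CPM). Neuronal markers (6 genes) were lowest in both samples (12.2 and 13.6 CPM). Endothelial markers (6 genes) were lowest in the FT sample (30.9 CPM) and highest in the HS sample (48.2 CPM). Astrocyte markers (6 genes) were lowest in the HS sample (144 CPM) but not in the FT sample (176 CPM). The part of all these markers in the results was not tested.

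Of 72 other genes of the pathway, 12 were DE against NI in at least 1 group. They gave 40 DE results in 432 comparisons, 37 higher and 3 lower, where 6.66% were DE over all genes. Among 22 target genes, 2, 4 and 5 were DE at the successive times of HS and 4, 4 and 7 at those of FT, all higher except Il6, an interleukin gene, at FT 72 h (-1.35). The shares of all genes that were DE in these comparisons were 13.4%, 2.18% and 3.23% (HS) and 12.2%, 4.05% and 4.88% (FT). The median log2 fold change of the targets was 0.55, 1.04 and 0.79 for HS, and for FT it was 0.61, 0.32 and 0.80. The other targets that were DE in some group were Ccl5, Cxcl10, Csf1, Il12b, Cd83, Bcl2l1 and Vcam1. None of 12 TNF receptors, sheddases and adaptors and none of 8 adaptors of the Toll-like and interleukin-1 receptors was DE in any group.

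Csf1, which encodes the growth factor of microglia and macrophages, was DE in all 6 groups. It rose from 39.2 ± 9.35 CPM (SD, n = 3) in NI to 159 ± 19.4 CPM (SD, n = 2) at HS 1 week and 171 ± 22.4 CPM (SD, n = 3) at FT 2 weeks. Cxcl10, an interferon-induced chemokine, was also DE in all 6, with log2 fold changes of 2.02 to 2.86. Ccl5, a chemokine for T cells, rose in 5 of 6 groups, from 9.64 ± 1.72 CPM (SD, n = 3) in NI to 173 ± 4.51 CPM (SD, n = 3) at FT 2 weeks. In FT 2 weeks replicate 1, where Tnf was lowest, Ccl5 was within 169 to 178 CPM like the other samples. The 22 targets together, however, summed to 3470 CPM in that sample, against 9230 and 9470 CPM in the others of its group. In HS 2 weeks replicate 1 they summed to 3660 CPM, against 9190 and 8700 CPM. At FT 1 week the sums were 6090, 4300 and 4820 CPM in replicates 1, 2 and 3. Il12b, an interleukin subunit, rose in 3 groups, up to a log2 fold change of 1.56.

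Of 11 I-kappa-B kinases and upstream kinases, Ikbke alone was DE, and it was so in all 6 groups. It encodes a kinase related to the I-kappa-B kinases that also acts in interferon induction, and it went from 1.97 ± 0.474 CPM (SD, n = 3) in NI to 24.1 ± 4.52 CPM (SD, n = 3) at FT 1 week (log2 fold change 3.32, adjusted p = 1.16e-07). Of 4 further I-kappa-B proteins, Nfkbie was lower at 72 h after HS (-1.32, adjusted p = 2.88e-05) and FT (-1.10, adjusted p = 0.00022). Its level was 36.8 ± 3.97 CPM in NI, 14.5 ± 2.20 CPM at HS 72 h and 16.9 ± 1.86 CPM at FT 72 h (SD, n = 3 each). Tnip3, which binds the enzyme made from Tnfaip3, was higher at HS 2 weeks (1.72) and FT 2 weeks (1.77). Cd40, a TNF family receptor of the alternative branch, was higher in 4 groups, up to 1.61 at FT 2 weeks.

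**Figure D5:**
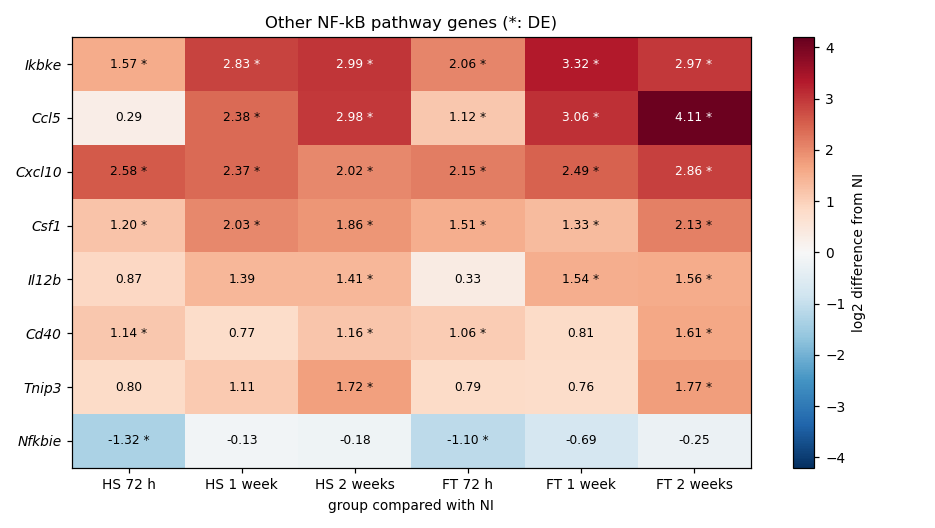
Log2 difference from NI (colour and printed value) of the 8 other pathway genes named by rule, in the 6 injured groups, with an asterisk where the gene was DE. Ikbke, Cxcl10 and Csf1 carry an asterisk in all 6 columns and Nfkbie is lower at 72 h.

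The genes whose pattern over the 20 samples was most like that of each member are given by Pearson's r of log2(CPM + 0.5) among 14051 genes, as a description. Nfkbiz was closest to Adamts1 (r = 0.98), Enkur (0.97) and Dusp1 (0.96), and Tnf to Cxcl2 (0.94), Ifrd1 (0.91) and Tnfaip3 (0.90). Tnfaip3 was closest to Ifrd1 and Mcl1 (0.92 each) and Mir22hg (0.91), and Nfkbia to Ppp1r15a (0.91), Sertad1 (0.90) and Tmem132a (0.89). Relb was closest to the class I gene H2-Q4 (0.93), 2210039B01Rik (0.91) and Slc25a25 (0.90). For Nfkb2 these were Fxr2 (0.92), Tfeb and Gpatch3 (0.90 each), for Rel Slc38a2 and Sirt1 (0.90 each) and Wsb1 (0.87), and for Rela Mul1 (0.87), Zkscan14 (0.85) and Slc25a29 (0.84). The values were lowest for Nfkb1 with Dgat1 (0.83), Zfp869 and Snapc4 (0.81 each), and for Bcl3 with Spg21 (0.81), Nfil3 (0.80) and Rad23b (0.79). All points share library, depth and group.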

How the data were processed

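Polyadenylated RNA of sorted microglia was sequenced in 20 samples of 7 groups. According to the study's methods and the submitters' processing notes, the authors removed adapters, mapped reads with TopHat2 2.0.9 to mm10, counted them with HTSeq 0.5.4p3, kept genes with at least 10 counts in at least 2 replicates and normalized with edgeR 3.3.6. The signal values that the authors deposited are CPM with the edgeR factor in the library size. Nearly all values (99.989%, within 0.001 of a step) are a whole number times the worth of a read, which gives back the reads.

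Log2(CPM + 0.5) was fitted with limma 3.58.1 (R 4.3.3, intensity trend, 1 mean per group, all 20 samples). Genes were DE at 2-fold or more with an adjusted p (Benjamini-Hochberg, all 16810 genes) under 0.05. Fold changes on this scale understate low genes. The 15 comparisons set injured groups against NI, FT against HS, and times against each other. The fits were tested on simulated data, where 160 of 200 changed genes were called. Of these, 64 had been changed 2.5-fold and 96 had been changed 4-fold, with as many genes changed at each fold. Part of the smaller changes was thus missed.

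Alternatives were 0.1 or 1 CPM added, fits on only the groups compared, a minimum of 1 CPM in 2 samples, median-of-ratios, quantile or 1-total scaling, no intensity trend, no fold limit, a replicate block, DESeq2 1.42.0 and edgeR 4.0.16 on the reads, each sample left out, and an immediate-early covariate (added after seeing the data). The 10 genes and the lists were chosen with earlier results of these data known. Pathway genes were named if DE against NI with a mean of at least 1 CPM in some group, at most the 4 with the largest change per list. Il6, Cd83, Bcl2l1 and Vcam1 were named after their values were seen. The lists held 169 genes, of which 161 were in the table. Coordinates and exon lengths are from GENCODE vM21 (GRCm38).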

Additional observations from a re-analysis of the deposited data

Results flagged for a closer look

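Rel at 1 week lay on opposite sides of the NI mean of 23.1 CPM after the 2 lesions, with both HS samples (32.1 and 24.3 CPM) above it and all 3 FT samples (14.6, 20.2 and 11 CPM) below it. The HS samples overlapped with the NI samples (20.9, 26.4 and 21.9 CPM), and neither difference from NI passed the test (0.28 for HS, adjusted p = 0.8, and -0.62 for FT, adjusted p = 0.209). The difference of FT minus HS was -0.89 on the log2 scale (standard error 0.30), and it did not pass the test (adjusted p = 0.999 over 16810 genes).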

How the results depend on the processing

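The number of comparisons with NI in which a gene of the set was DE (1 of 60) was 2 with 0.1 CPM added, quantile scaling, the edgeR likelihood ratio test or DESeq2, 0 with 1 CPM added, 3 with only the groups compared or with no fold limit, 5 with columns scaled to 1 total, and 11 with the immediate-early covariate. Leaving out single samples gave 0 to 4. It was 0 with the replicate block (Bcl3 at FT 2 weeks, adjusted p = 0.0516). Same-numbered samples of different groups deviated together in 20 of 57 such pairs of samples (r over 0.1, range -0.426 to 0.444). The numbers were therefore not taken to pair the samples. The highest r was between HS 2 weeks replicate 1 and FT 2 weeks replicate 1. The labels do not say whether any samples were processed together. The block changed no other call of the set. Between times (3 of 60) the count was 5 with only the groups compared and 2 to 5 with single samples left out. With columns scaled to 1 total, Rel was DE from HS 72 h to HS 1 week (1.08, adjusted p = 0.0294). Between FT and HS it was 0 under every alternative. For the other pathway genes (40 of 432) it was 74 with the covariate and 34 to 49 with single samples left out. With the covariate Tnf at FT 1 week turned from -0.61 to 1.16, and Relb from HS 72 h to 2 weeks was 0.99, under 2-fold. Over all genes, calls against NI numbered 6719 (4663 higher), and 10261 (2223 higher) with columns scaled to 1 total or 12489 without the fold limit. Between times they numbered 3043 (896 higher), 3149 (1672 higher) and 5195. Bcl3 rests on 13 to 153 reads per sample. Causes of these changes were not tested. The fits that leave samples out also hold fewer samples.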
